A study of Mus musculus with 38 samples.

Results

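Immediate early genes are transcribed within minutes of a stimulus, without new protein synthesis, when MAP kinases and calcium or cAMP signals act on factors already bound at their promoters. The 7 described here are Fos, Fosb, Jun, Junb, Egr1, Ier2 and Dusp1. All probes annotated to them in the table of intensities before normalization between arrays were taken, which gave 7 probes, 1 for each gene, of 17411 named genes and 34492 probes on the array. Fos and Fosb proteins pair with Jun and Junb proteins into the transcription factor AP-1, Egr1 is a zinc finger transcription factor, Ier2 is a nuclear protein, and Dusp1 is a phosphatase that switches MAP kinases off. In spleen these genes are known to respond to antigen receptor signals in lymphocytes and to inflammatory signals in myeloid cells.

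The series holds spleen RNA of 38 BXD strains, which are recombinant inbred mouse lines made from a cross of a pair of inbred parents. Each strain had 1 single-colour Illumina Mouse-6 array, and per the labels the RNA on it was an equal mix from 2 mice of the same sex, between 8 and 12 weeks of age. The labels give 3 arrays as female (BXD18, BXD38 and BXD96) and 35 as male. No mouse was given an agent per the labels, all were killed by cervical dislocation, and spleens went into RNAlater before extraction. Because each strain has 1 pool on 1 array, strain, pool and array cannot be told apart, and p-values measure the spread between arrays. The sources used here do not give hybridisation batches or the time between death and stabilisation.

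The sex labels went against the sex transcripts on several arrays. Of the 3 arrays labelled female, BXD96 alone had Xist, the RNA of the inactive X chromosome, without a signal of the Y-linked genes Eif2s3y and Kdm5d. BXD18 and BXD38 had Xist at 5.20 and 5.50 and Eif2s3y at 9.13 and 9.32 on the log2 intensity scale, against 11.85 and 4.62 on BXD96. Among the 35 arrays labelled male, 31 had the Y signal without Xist, BXD70 had Xist at 11.62 without the Y signal, and BXD32, BXD65 and BXD75 had both, which goes against pools of a single sex. The groups are therefore called arrays labelled female and arrays labelled male throughout, and no difference between them is a difference between sexes. Detected probes per array ran from 14660 to 15482 on the arrays labelled female and from 13791 to 15732 on those labelled male. Among the markers of spleen cell types, the B cell list averaged 11.40 to 11.93 on arrays labelled female and 11.25 to 12.19 on those labelled male, and the T cell list 10.08 to 10.57 and 9.67 to 11.02. On the arrays behind several results below, BXD38 had the lowest red pulp macrophage mean of all 38 (11.78, against 11.97 to 12.66 on arrays labelled male) and the highest endothelium mean (9.79, against 9.19 to 9.78), and BXD18 the lowest endothelium mean (9.12). The pancreas list, of an organ that lies against the spleen, averaged 5.57 to 15.28 on arrays labelled female and 5.56 to 15.42 on those labelled male.

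Promoter sequence from RefSeq (build GRCm38.p6, 250 bases before to 50 after the start of the gene) was found for 5 of the 7 genes. The windows of Fos and Dusp1 are printed because these were the pair that varied most closely together and the pair that differed by label. The Fos window is chr12:85473640-85473939 on the plus strand and the Dusp1 window is chr17:26508423-26508722 on the minus strand, and both are given 5′ to 3′ along the gene. Capitals mark the letters of the short CRE motif TGACG on either strand, the core of the element bound by the cAMP response factor CREB.
Fos: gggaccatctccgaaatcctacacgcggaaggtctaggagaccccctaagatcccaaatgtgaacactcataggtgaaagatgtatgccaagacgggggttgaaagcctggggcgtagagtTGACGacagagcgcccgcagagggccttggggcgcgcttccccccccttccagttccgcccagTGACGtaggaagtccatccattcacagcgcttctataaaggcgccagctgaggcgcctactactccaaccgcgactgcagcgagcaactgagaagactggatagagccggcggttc
Dusp1: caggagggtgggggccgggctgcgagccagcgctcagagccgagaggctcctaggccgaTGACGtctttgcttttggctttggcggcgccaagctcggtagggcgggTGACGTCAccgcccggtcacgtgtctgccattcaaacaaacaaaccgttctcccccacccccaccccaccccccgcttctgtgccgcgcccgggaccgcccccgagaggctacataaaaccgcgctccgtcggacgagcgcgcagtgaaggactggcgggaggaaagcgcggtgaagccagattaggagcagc

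The motif TGACG was present on either strand in the windows of 4 of the 5 genes, Dusp1, Fos, Fosb and Junb, and in 20.8% of all 32851 windows. The full palindrome TGACGTCA, which contains that motif on both strands, was present in Dusp1 alone among the 5 and in 1.79% of all windows. The AP-1 letters TGANTCA, present in 7.81% of all windows, and the CArG box bound by SRF, present in 1.63%, were in none of the 5. The TATAAA letters were in the Fos and Junb windows and in 13.6% of all windows, and the Egr letters GCGNGGGCG were in the Fosb window and in 5.55%. Matches describe letters in these windows and do not show binding in spleen. Sequence farther upstream and variants of these letters were not searched, so a missing match does not mean that the gene lacks such a site.

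The arrays labelled female held the highest values of Fos. Fos, the AP-1 subunit that gives the family its name (probe ILMN_2750515), was at 9.35, 9.46 and 8.78 on BXD18, BXD38 and BXD96, and at 6.50, 7.72 and 8.63 (lowest, median, highest) on the 35 arrays labelled male. Thus 0 arrays labelled male reached the lowest array labelled female, and BXD24 was lowest. The share of all kept probes that separated the labels in this way was not counted, so how unusual it is cannot be said. Its SD over 38 arrays was 0.60, within the 8.42% of kept probes that varied most. Before normalization its intensity was 749.6, 568.7 and 603.6 on BXD18, BXD38 and BXD96. On arrays labelled male it ran from 141.0 on BXD24 to 527.9 on BXD6.

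Fosb (probe ILMN_2778279), the close relative of Fos, was above background on 5 arrays only: BXD18 and BXD38 among those labelled female, and BXD51, BXD65 and BXD98 among those labelled male. It was at 6.13, 5.69 and 5.26 on BXD18, BXD38 and BXD96, and at 4.43, 4.94 and 6.18 (lowest, median, highest) on arrays labelled male. The highest Fosb value was on BXD98, which had the lowest Jun value of all 38 arrays (7.12).

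The Jun family varied less. Jun (probe ILMN_2646625) was at 7.56, 8.25 and 7.98 on BXD18, BXD38 and BXD96, and at 7.12, 7.63 and 8.18 (lowest, median, highest) on arrays labelled male. Junb (probe ILMN_1220034), the member known to be abundant in activated lymphocytes, was at 9.13, 9.76 and 9.15 on BXD18, BXD38 and BXD96, and at 8.56, 8.97 and 9.42 on arrays labelled male. BXD38 had the highest value of both genes, while 20 arrays labelled male reached the lowest array labelled female for Jun and 8 for Junb. The Junb probe had intensities of 389.4 to 824.4, yet its deposited detection p-value was under 0.01 on 0 arrays, so its detection rests on the p-values smoothed over intensity here.

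Egr1 (probe ILMN_2662926) was at 11.01, 11.35 and 10.95 on BXD18, BXD38 and BXD96, and at 10.43, 10.71 and 11.23 (lowest, median, highest) on arrays labelled male. BXD38 was again highest and the groups overlapped, with 9 arrays labelled male at or above the lowest array labelled female. The range of Egr1 over all arrays was 0.92 on the log2 scale, against 2.96 for Fos.

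Ier2 was above background on BXD96 alone. Its values were 4.86, 4.67 and 5.56 on BXD18, BXD38 and BXD96, and 4.43, 4.70 and 4.91 (lowest, median, highest) on arrays labelled male, none of which was above background. No fold is given for Ier2, and it did not pass the filter on dim probes, so 6 of the 7 genes entered the fits below.

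Dusp1 (probe ILMN_2622983) was at 12.72, 13.09 and 12.02 on BXD18, BXD38 and BXD96, and at 11.04, 11.54 and 12.05 (lowest, median, highest) on arrays labelled male. BXD18 and BXD38 stood above every array labelled male, while 2 of those, BXD83 and BXD34, reached the value of BXD96. Before normalization the intensity of Dusp1 was 6489, 7053 and 5033 on BXD18, BXD38 and BXD96. On arrays labelled male it ran from 1486 on BXD19 to 5161 on BXD50.

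**Figure D1:**
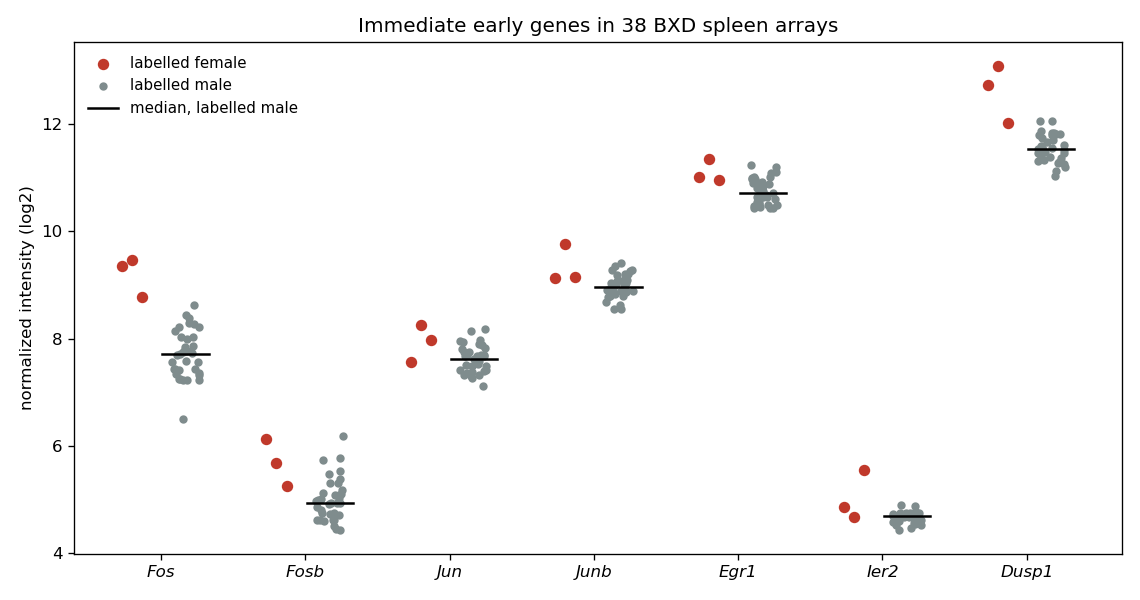
Normalized intensity (log2, vertical axis) of the 7 immediate early genes, with 1 point for each array, arrays labelled female in red at the left of each gene and arrays labelled male in grey at the right, and a line at the median of the arrays labelled male. The 3 red points of Fos lie above all grey points, and for Dusp1 BXD18 and BXD38 do; for Jun, Junb and Egr1 the red points overlap the grey.

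To see whether single arrays stood apart across the genes, each value was expressed as its distance from the gene's median over 38 arrays in scaled median absolute deviations (MADs). The rule asked for 4 of 7 genes, or failing that 3, beyond 3 scaled MADs in the same direction, and 0 arrays met either form. BXD38 had 2 genes beyond 3 scaled MADs above the median, Junb at 3.51 and Dusp1 at 4.5, and missed the form with 3 genes only because its Fos value lay just under the threshold. BXD18 had 1 gene beyond it, Dusp1 at 3.42, and BXD96 had 1, Ier2 at 10.79, while BXD24 had 1 below, Ier2 at -3.41. A score was also taken for each array, the mean over the 7 genes of the value centred on the gene's mean and divided by its SD over 38 arrays, which gives less weight than the MADs to the single Ier2 value of BXD96. The score was 1.38, 2.17 and 1.48 on BXD18, BXD38 and BXD96, and at most 0.42 (BXD50) on an array labelled male. Ier2, which did not pass the filter on dim probes, still counts in the score as much as each other gene. A large part of the score of BXD96 therefore comes from its Ier2 value. BXD24 was lowest at -1.05, followed by BXD69 at -0.90. Over 38 arrays the score had an r of 0.30 (rho 0.24) with the number of detected probes and -0.27 (rho -0.20) with median intensity.

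**Figure D2:**
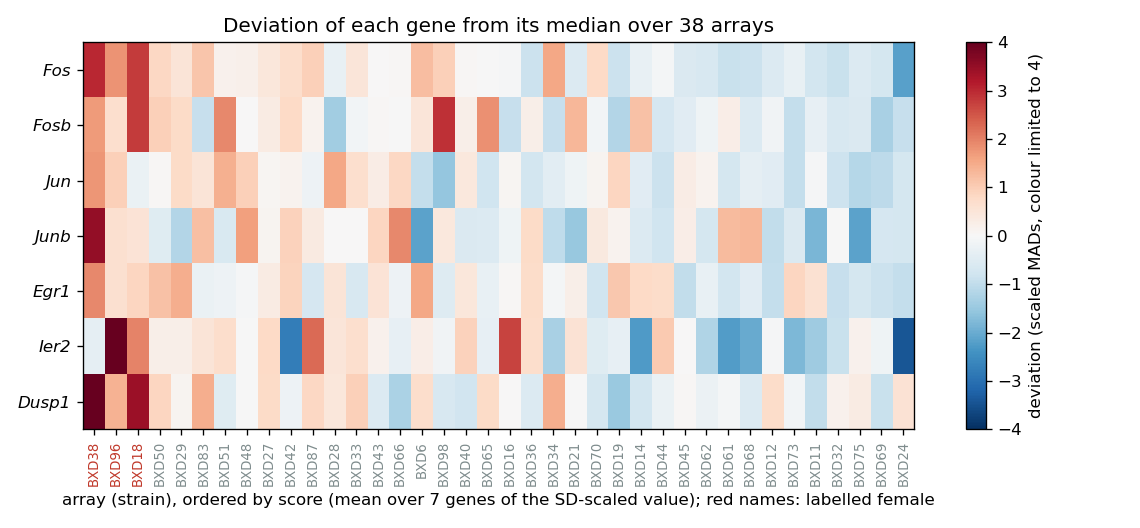
Distance of each gene (rows) from its median over 38 arrays, in scaled MADs (colour, limited to 4), for every array (columns), ordered from the highest to the lowest score, the mean of the SD-scaled values. BXD38, BXD96 and BXD18, named in red because they are labelled female, fill the first 3 places, and Ier2 is high on BXD96 and not on BXD38.

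The difference between labels was fitted for every probe with limma. Fos and Dusp1 were higher on arrays labelled female, and the other 4 genes tested did not pass. Thus 2 of 6 genes were called, beside 54 of 17583 probes, or 0.307%, of the whole table (46 higher and 8 lower). Dusp1 was 1.07 ± 0.16 higher on the log2 scale (SE, 3 arrays against 35; 2.09-fold; limma adjusted p = 0.00101), the lowest p-value of all probes. Fos was 1.48 ± 0.26 higher (2.79-fold; limma adjusted p = 0.00319). The differences of Fosb (0.69 ± 0.24), Junb (0.36 ± 0.14), Egr1 (0.35 ± 0.14) and Jun (0.31 ± 0.16) had limma adjusted p-values of 0.358, 0.474, 0.569 and 0.749.

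Both calls rested on BXD18 and BXD38 together. Without BXD18 the limma adjusted p-values were 0.0922 for Fos and 0.0525 for Dusp1, and without BXD38 they were 0.286 for both, with 2 and 1 probes called in the whole table. The differences were 1.40 for Fos and 1.01 for Dusp1 without BXD18, and 1.35 and 0.83 without BXD38. Each of these fits had 1 array labelled female fewer, so the loss of the call does not mean that the difference was gone. Without BXD96, the one array labelled female whose sex transcripts matched its label, Fos was 1.69 higher and Dusp1 1.36 higher, and both stayed called among 161 probes. The size of the Fos difference varied with the processing: it was 0.643 with detection p-values as deposited, 0.83 in the authors' processed table and 1.22 without background correction, and called in all 3.

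Other genes of the same response, were taken from a list of 48 primary response genes. Of 41 that passed the filter, 2 were called and both were higher on arrays labelled female. Socs3, a feedback inhibitor of cytokine signalling, was at 11, 11.97 and 9.91 on BXD18, BXD38 and BXD96 and at 9.44, 9.84 and 10.76 (lowest, median, highest) on arrays labelled male, a difference of 1.13 ± 0.21 (limma adjusted p = 0.00737). Fosl2, another relative of Fos in AP-1, was at 8.29, 9.13 and 7.43 and at 6.85, 7.25 and 8.40, a difference of 1.0 ± 0.22 (limma adjusted p = 0.0213). For both genes BXD96 lay inside the range of the arrays labelled male. The median difference of the 41 genes was 0.35, with 38 of 41 above 0, beside a median of -0.02 over 11167 named genes. Egr2 (0.59 ± 0.20), Egr3 (0.39 ± 0.15) and Atf3 (0.75 ± 0.23) had limma adjusted p-values of 0.347, 0.541 and 0.235.

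Of 17 tested genes of the pathway that switches these genes on (SRF, its partners, CREB and MAP kinases), 0 were called, with a median difference of -0.06. Of 11 other AP-1 partners 1 was called, Fosl2 again, and of 6 heat shock genes 1 was called, Hspb1 (1.15 ± 0.23, limma adjusted p = 0.0125). The heat shock list did not rise as a whole, with 3 of 6 differences above 0 and a median of 0.01.

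Among genes known to be induced by glucocorticoids, as Dusp1 is, all 12 tested had differences above 0, with a median of 0.73. Over all named genes 4993 of 11167 were above 0, with a median of -0.02. Of the 12, 4 were called. These were Fkbp5, a co-chaperone of the glucocorticoid receptor (1.06 ± 0.22, limma adjusted p = 0.015), Ddit4, an inhibitor of mTORC1 (1.30 ± 0.28), Errfi1, an inhibitor of the EGF receptor (1.46 ± 0.32), and the transcription factor Klf9 (0.96 ± 0.21), the last 3 with limma adjusted p-values of 0.0213. Fkbp5 was at 10.12, 11.06 and 8.48 on BXD18, BXD38 and BXD96, and at 8.46, 8.83 and 9.53 (lowest, median, highest) on arrays labelled male. BXD96 was thus below nearly all arrays labelled male for Fkbp5, with 33 of 35 at or above it. The other 3 called genes went the other way on BXD96. Ddit4, Klf9 and Errfi1 were at 9.16, 11.09 and 10.73 there, above the medians of arrays labelled male (8.36, 10.75 and 10.6). For these, 2, 5 and 12 of 35 arrays labelled male were at or above BXD96. Without BXD18 or without BXD38, 0 genes of this list and 0 of the primary response list were called, and without BXD96, 6 and 4 were. The lists were chosen with earlier results of these data known. A part of glucocorticoids in these differences was not tested.

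Markers of other cells moved with these differences in part. Of 8 neutrophil markers 1 was called, Retnlg (2.10 ± 0.47, limma adjusted p = 0.0318), and 3 of 8 were above 0. Retnlg was at 12.97, 13.62 and 11.33 on BXD18, BXD38 and BXD96 and at 9.01, 10.62 and 13.43 (lowest, median, highest) on arrays labelled male. The summed level of the neutrophil list was 37200 to 65300 on arrays labelled female and 11300 to 128000 on those labelled male, and all of its 8 genes were above the detection filter. Its genes went both ways: S100a9 (1.19 ± 0.47) and S100a8 (0.75 ± 0.39) were above 0 with limma adjusted p-values of 0.538 and 0.755, and the granule genes Mpo (-0.35), Ltf (-0.34), Camp (-0.24), Elane (-0.23) and Ngp (-0.06) were below 0, so the mean of the list does not follow Retnlg. Genes known from neutrophils and other myeloid cells that are not on the list, picked after their values were seen, were also among the 54 probes called. They were the chemokine receptor Cxcr1 (2.47 ± 0.43), Il1r2 (2.08 ± 0.33), the lectins Clec4d (1.92 ± 0.32) and Clec4e (1.5 ± 0.31), Cd14 (1.25 ± 0.30) and the cytokine receptor Csf3r (1.01 ± 0.24), with limma adjusted p-values from 0.00101 to 0.0467. Il1r2 was above background on 13 of 38 arrays only, so its difference is measured largely against values near background. BXD96 lay inside the range of arrays labelled male for Il1r2 (5.88, against 4.65 to 6.66) and Clec4d (8.27, against 6.94 to 8.85). The part of neutrophils and other myeloid cells in the differences of Fos and Dusp1 was not tested. The pancreas list had 0 calls of 15 and a median of -1.64, and BXD38 held the 4th highest pancreas mean of all arrays while BXD18 and BXD96 were low. With that mean as a covariate Fos was 1.40 higher and Dusp1 1.06 higher, both still called. Because these are bulk samples, more cells of a type and more RNA per cell cannot be told apart.

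The study set spleen expression against lymphocyte traits of the strains. The traits were LN T:B, the natural log of T cells over B cells, LN CD4:CD8, the same for helper and cytotoxic T cells, and LN MHC Med, of the median MHC class II on B cells. All 3 were fitted over the 34 strains with both an array and trait values. The genes tested passed for none: 0 of 6 were called for LN T:B, beside 0.148% of all probes, 0 of 6 for LN CD4:CD8, beside 0%, and 0 of 6 for LN MHC Med, beside 0.233%. Over all probes, 2209, 1832 and 983 had an unadjusted limma p under 0.05, and of the 18 fits of these genes 1 did. That one was Fosb on LN T:B, with a slope of -0.16 ± 0.07 on the log2 scale per SD of the trait (limma adjusted p = 0.365). Fosb was above background on 5 arrays only, so this slope rests largely on values near background. The 95% interval that reached farthest from 0 was that of Fosb on LN T:B, -0.31 to -0.01, and those of Fos were -0.27 to 0.16 on LN T:B, -0.29 to 0.14 on LN CD4:CD8 and -0.29 to 0.13 on LN MHC Med. The narrowest on LN T:B, from -0.13 to 0.04 for Junb and from -0.09 to 0.09 for Egr1, still allow small slopes.

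**Figure D3:**
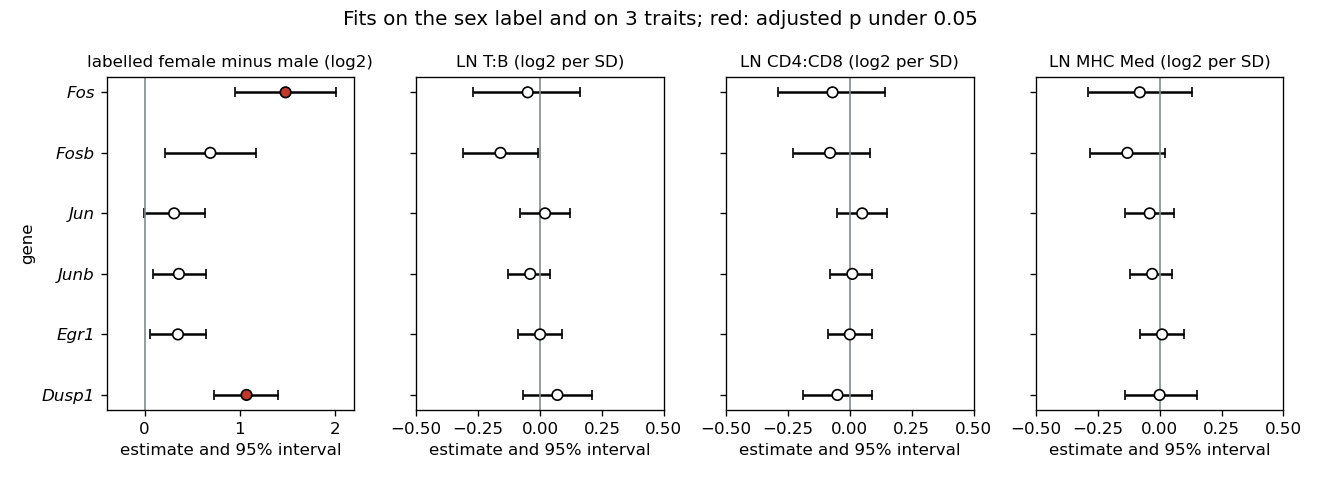
Fitted differences and slopes (points, log2) with 95% intervals (bars) for the 6 genes that passed the filter, with arrays labelled female minus arrays labelled male in the first panel and the slope per SD of each trait in the others. Fos at 1.48 and Dusp1 at 1.07 in the first panel are the 2 filled points (limma adjusted p under 0.05), and the horizontal scale of the first panel is wider than that of the others.

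Coexpression was measured over the 21 pairs of the 7 genes. Over 38 arrays all 21 correlations were above 0, with a median r of 0.28, beside a median of 0.01 over all pairs of named genes, 13.3% of which reached 0.28. By permutation tests with Benjamini-Hochberg adjustment over the 21 pairs, 4 passed with Pearson's r, and 2 with Spearman's rho. Values of Ier2 were near background on 37 arrays, so its pairs carry little information. Fosb was above background on 5 arrays only, so its pairs, that with Fos among them, rest largely on values near background.

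Fos and Dusp1 had the highest correlation of the 21, with r = 0.71 (permutation adjusted p = 0.00042) and rho = 0.50 (permutation adjusted p = 0.0289) over 38 arrays. Without BXD38 and BXD18, the arrays farthest from the Fos median, r was 0.45, and over the 35 arrays labelled male it was 0.38 (permutation adjusted p = 0.267). Fos and Fosb had r = 0.52 and rho = 0.48 (permutation adjusted p = 0.00987 and 0.0289) over 38 arrays, 0.34 without BXD38 and BXD18, and 0.32 over arrays labelled male (permutation adjusted p = 0.369). Fos and Egr1 had r = 0.45 (permutation adjusted p = 0.0275) and rho = 0.38 (permutation adjusted p = 0.0761), with r = 0.29 without those arrays and 0.26 over arrays labelled male. Jun and Junb had r = 0.44 (permutation adjusted p = 0.0275) and rho = 0.40 (permutation adjusted p = 0.0761), with r = 0.37 without BXD38 and BXD98 and 0.31 over arrays labelled male.

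The coexpression of the set by Pearson's r was lower without the 3 arrays labelled female, and by rank it moved less. Those arrays also had the 3 highest scores, so leaving them out narrows the range of the same values, which can lower r by itself. Over the 35 arrays labelled male 0 of 21 pairs passed (2 at an unadjusted permutation p under 0.05), 13 were above 0, and the median r was 0.07, which 40.3% of all pairs of named genes reached. By Spearman's rho the median was 0.21 over 38 arrays, with 20 of 21 pairs above 0, and 0.17 over arrays labelled male, with 15 above 0, 4 at an unadjusted permutation p under 0.05 and 0 after adjustment. Junb moved to the other side of 0 with Egr1 (r = 0.05 over 38 arrays and -0.22 over arrays labelled male) and with Dusp1 (0.28 and -0.19), and neither value passed. Leaving out 1 array at a time (10000 resamples), 2 to 6 pairs passed, 6 of them without BXD98, and the median r was lowest, 0.175, without BXD38.

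**Figure D4:**
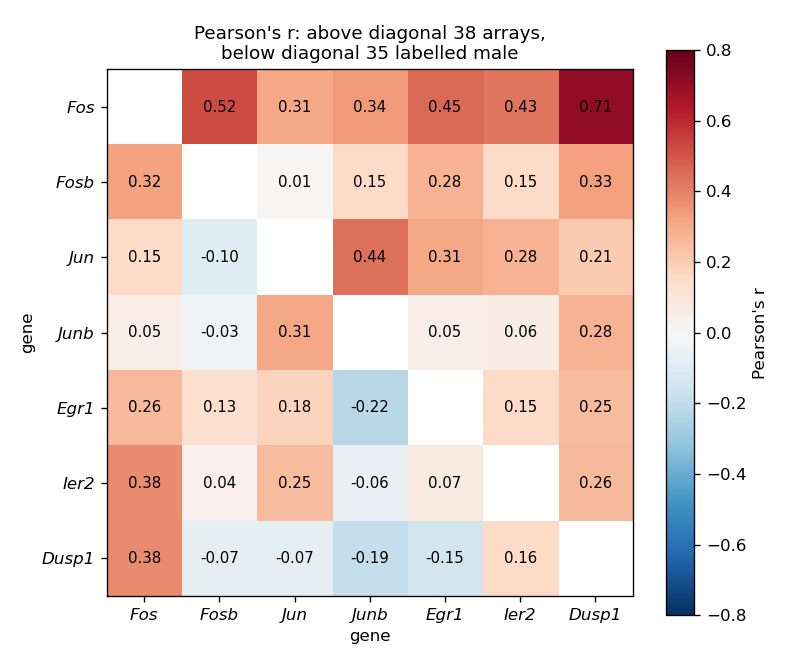
Pearson's r of each pair of the 7 genes, over 38 arrays above the diagonal and over the 35 arrays labelled male below it, with colour from blue (negative) to red (positive). Above the diagonal all 21 values are above 0, with 0.71 for Fos and Dusp1; below it 13 are, and Fos and Dusp1 have 0.38.

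Each gene was then used as a predictor of all other probes with limma, which sets these pairs against the whole table. Fos as predictor called 228 probes (1.3%) over 38 arrays. Of all 17582 other probes Dusp1 had the 14th highest r (limma adjusted p = 0.000602) and Fosb the 206th (limma adjusted p = 0.0465), both called, while Egr1, Jun and Junb were not called (limma adjusted p = 0.123, 0.34 and 0.284). The named genes closest to Fos were Clec4d (r = 0.84), a C-type lectin of myeloid cells, the adhesion protein Emb (0.79) and Arg2 (0.78), a mitochondrial arginase. Of the list of primary response genes, 9 were called with Fos, among them the cytokine Il1b (0.72), Fosl2 (0.72), Socs3 (0.66) and Atf3 (0.64). Over arrays labelled male Fos called 14 probes (0.0796%), and Clec4d (0.71, limma adjusted p = 0.0202), Emb (0.69, limma adjusted p = 0.0281) and Il1b (0.65, limma adjusted p = 0.0387) were among them.

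Dusp1 as predictor called 69 probes (0.392%). Fos was the 4th highest by r (limma adjusted p = 0.00151), and Clec4d (0.74), Errfi1 (0.73), Fosl2 (0.69) and Fkbp5 (0.69) were also called. Over arrays labelled male 1 probe was called (0.00569%), of the arrestin-related gene Arrdc2 (r = 0.70, limma adjusted p = 0.0476).

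Egr1 as predictor called 181 probes (1.03%) over 38 arrays and 335 (1.91%) over the 35 arrays labelled male. The counts of Fos and Dusp1 over arrays labelled male were 14 and 1. These counts depend on the adjusted threshold. At an unadjusted limma p under 0.05 over arrays labelled male, Egr1 had 2964 probes (16.9%), Fos 2968 (16.9%) and Dusp1 898 (5.11%). Over 38 arrays the unadjusted counts were 2822, 2759 and 1539. Both close relatives of Egr1 on the list of primary response genes were called over 38 arrays, Egr3 (r = 0.64, limma adjusted p = 0.0237) and Egr2 (r = 0.62, limma adjusted p = 0.0237). Over arrays labelled male Egr3 stayed called (0.60, limma adjusted p = 0.0312) and Egr2 did not (0.52, limma adjusted p = 0.0568). Cd69, an early activation marker of lymphocytes, was called over 38 arrays as well (0.56, limma adjusted p = 0.0363), as was the stress gene Gadd45g (0.56, limma adjusted p = 0.0332), and over arrays labelled male Egr3 was the only gene of that list called. The named gene closest to Egr1 was Sec63, a part of the protein translocation machinery of the endoplasmic reticulum, with r = 0.76 over 38 arrays and 0.73 over arrays labelled male. The T cell marker Cd3e had r = 0.61 with Egr1 over 38 arrays and 0.65 over arrays labelled male. It is the only T cell marker for which r with Egr1 is given here, and the part of T cells in these correlations was not tested.

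Fosb as predictor called 35 probes (0.199%), Junb 3 (0.0171%), Jun 1 (0.00569%) and Ier2 0 (0%), the last with 642 probes at an unadjusted limma p under 0.05. Fosb was near background on most arrays, and its count fell to 0 in the authors' processed table and to 1 with the first principal component in the fit. The single gene called with Jun over 38 arrays was Rcan1, an inhibitor of calcineurin (r = 0.69, limma adjusted p = 0.041). Over arrays labelled male Rcan1 had r = 0.72 (limma adjusted p = 0.0238). Jun had 2529 probes (14.4%) at an unadjusted limma p under 0.05 over 38 arrays. Its count of called probes rose to 213 with the first principal component in the fit and was 212 in the authors' processed table. Those closest to Junb among named genes were Cebpb (0.67, limma adjusted p = 0.0235), a transcription factor of myeloid cells and the acute phase, and Egln2 (0.67, limma adjusted p = 0.0495). No other gene of the 7 was called with Fosb, Jun, Junb, Egr1 or Ier2 as predictor.

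**Figure D5:**
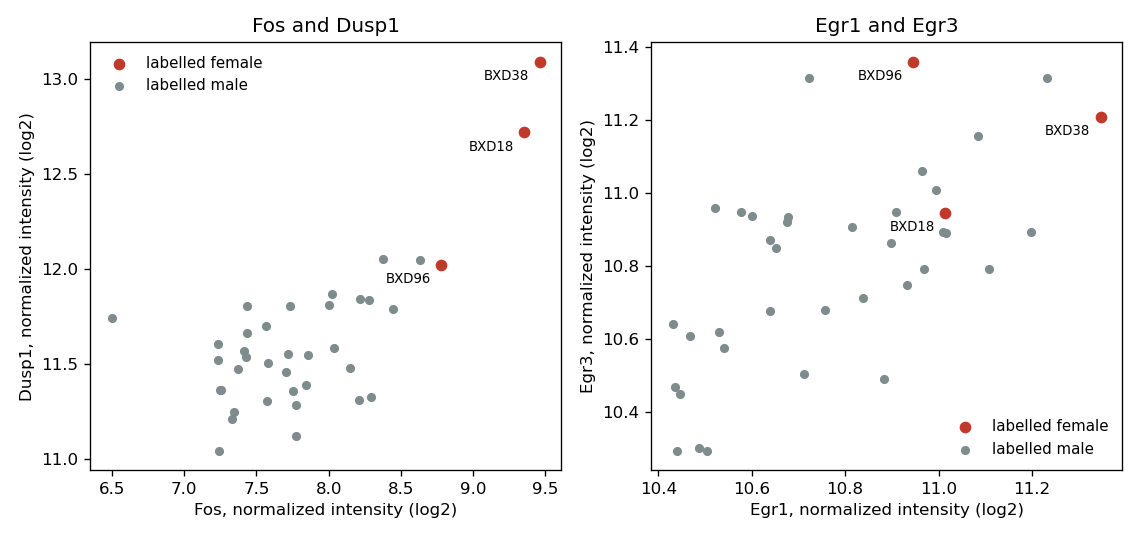
Normalized intensity (log2) of Dusp1 against Fos (left panel) and of Egr3 against Egr1 (right panel), with 1 point for each array, arrays labelled female in red and named, and arrays labelled male in grey. BXD18 and BXD38 lie at the upper right end for Fos and Dusp1 (r = 0.71 over 38 arrays and 0.38 over arrays labelled male), whereas the points of Egr1 and Egr3 spread along the whole range (0.64 and 0.60).

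The genes most like the set as a whole were taken by r with the score, computed anew within the arrays labelled male where those alone are given. Over 38 arrays the highest were Clec4d (0.73), the decoy receptor Il1r2 (0.72), Emb (0.71), Enc1 (0.70) and Tnfrsf12a (0.70), and the lowest was Coq7 (-0.61). Over arrays labelled male Clec4d had 0.41 and Il1r2 0.29, while Emb (0.57) and Enc1 (0.58) stayed within the 22 highest of 11167 named genes. There the highest were Rflnb (0.68), the nucleotide receptor P2ry14 (0.67) and Dusp5 (0.66), a phosphatase of the same family as Dusp1. The list of other primary response genes had a median r of 0.33 with the score over 38 arrays and 0.24 over arrays labelled male, beside 0.01 and 0.05 over all named genes. The glucocorticoid list was higher over 38 arrays, at 0.52, and lower over arrays labelled male, at 0.17. The AP-1 partners had 0.26 and 0.14, the list of SRF, CREB and MAP kinases 0.06 and 0.12, and the heat shock list -0.04 and 0.01.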

How the data were processed

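The authors deposited bead-averaged intensity values before any normalization between arrays, beside detection p-values, per the file headers. They also deposited processed log2-like values, and the submitters' processing notes list lumi without saying its role. Per-strain natural log values of the 3 traits were deposited too, per the labels.

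Some deposited detection p-values do not follow intensity, so within each array p-values were smoothed by a running median (window of 201 probes sorted by brightness). Background correction, quantile normalization and the log2 step were done by neqc (limma 3.58.1, offset 16, R 4.3.3, data.table version 1.17.8). Probes were kept where the smoothed p-value was below 0.01 on 3 or more arrays (17583 of 34492, for 11167 named genes). Median intensity per array ran from 85.0 to 121.6, and precision is limited by how many arrays there are. Symbols came from the platform annotation.

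Each probe was fitted with lmFit and eBayes on the sex label (female minus male), each trait and each member, two-sided, with p-values adjusted by Benjamini-Hochberg over all kept probes (threshold 0.05). Correlations used two-sided permutation tests with 100000 resamples (Python 3.11.15, numpy 2.4.6, scipy 1.17.1, pandas 2.3.3). Both procedures were tested on simulated data, and figures were drawn with matplotlib 3.10.9. All members, the 5 highest and 3 lowest named genes by r with each member as predictor, the 10 highest and 5 lowest by r with the members' score, and list genes that were called could be named. List genes that were not called, Cxcr1, Clec4e, Cd14 and Csf3r were singled out after they were seen. So were the array values of Fkbp5, Ddit4, Klf9, Errfi1, Il1r2, Clec4d and Retnlg. The members and lists were chosen with earlier results of these data known. A further 4 columns of strain values, of cell percentages, were not used.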

Additional observations from a re-analysis of the deposited data

How the results depend on the processing

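The count of 2 members called between labels fell to 0 without BXD18 and to 0 without BXD38 (range 0 to 2 over the arrays labelled female left out), and was 2 in every other alternative run. The 4 pairs called fell to 2 with Spearman's rho, 0 over arrays labelled male (median r 0.073) and 2 without the 4 arrays labelled male with Xist signal, an alternative added after the data were seen; it ran from 2 to 6 when 1 array was left out. Predictor counts over arrays labelled male, also added later, were 14 for Fos, 1 for Fosb, 1 for Junb, 335 for Egr1 and 1 for Dusp1. With the first principal component in the fit they were 1 for Fosb, 213 for Jun and 275 for Egr1. In the authors' processed table they were 0 for Fosb, 212 for Jun, 6 for Junb and 362 for Egr1, and with detection p-values as deposited 20 for Junb and 331 for Egr1. The causes were not tested.

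Slopes near 0 changed sign in 17 cases and none was called. For LN T:B, Fos gave 0.001 with deposited detection p-values, 0.021 with the first principal component, 0.014 with the pancreas list mean and 0.007 with the number of detected probes. Egr1 gave 0.004 with the pancreas list mean, 0.005 with the heat shock list mean and 0.003 with detected probes, and Jun -0.061 without the 2 arrays farthest from the trait median. For LN CD4:CD8, Junb gave 0 and Egr1 -0.004 in the authors' table, Egr1 -0.023 without the 2 farthest arrays, Fos 0.009 and Dusp1 0.008 over arrays labelled male, and Fos 0.011 and Dusp1 0.012 with the label as covariate. For LN MHC Med, Dusp1 gave -0.012 with the heat shock list mean and -0.002 without the 2 farthest arrays.

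Over arrays labelled male the sign of r turned for Fosb with Jun (-0.101), Junb (-0.03) and Dusp1 (-0.067), for Jun with Dusp1 (-0.073), for Junb with Egr1 (-0.219), Ier2 (-0.061) and Dusp1 (-0.188), and for Egr1 with Dusp1 (-0.151). It turned for Fosb with Jun without background correction (-0.004), in the authors' table (-0.013), and with the first principal component (-0.019) or the pancreas list mean (-0.054), and for Junb with Ier2 in rho (-0.023). None of these 13 values passed. Chip as a block, another probe per gene and leaving out arrays that stand apart were not run, since headers give no chip, each gene has 1 probe and no array met the rule; BXD38, which missed it narrowly, is among the arrays left out above.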
